A study of Mus musculus with 14 samples.

Results

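The proteasome genes were examined in single retinal ganglion cells (RGCs) from adult mice, 14 in number, each hybridized to its own Affymetrix Mouse430_2 array. A gene was taken as a member when its symbol was Psm followed by a letter from a to g and a number, and when a probe set of the array was annotated to that gene alone. This gave 47 genes among 18193 measured genes. Psme2, which encodes a partner of Psme1, has no probe set here that is annotated to it alone. All 14 cells formed 1 group. They came from double heterozygotes of a cross between PV-Cre mice, in which Cre follows the parvalbumin gene Pvalb, and Ai9 reporter mice, which make tdTomato wherever Cre has acted. The strain background was mixed, and the study noted that a retinal degeneration allele might segregate in it. The study also reported that it saw no photoreceptor degeneration in mice of this cross. Retinas were dissociated with papain, red cells were picked by pipette straight into lysis buffer, and the RNA of each cell was copied from its poly(A) tail with oligo-dT and amplified by 35 cycles of PCR. The study screened the libraries by PCR for Sncg, and for rhodopsin and glutamine synthetase as signs of rods and Müller glia, before it chose those to hybridize. No source names the animal of a cell, so the cells do not stand for replicates of a condition, no test was made, and each SD describes the spread between cells.

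The proteasome is the cell's main protease for proteins tagged with ubiquitin. Its core is a barrel of stacked rings, with outer rings of alpha subunits that gate the entrance and inner rings of beta subunits that hold the catalytic sites, and a regulatory cap on the barrel binds the tagged protein, removes the ubiquitin, unfolds the chain with a ring of ATPases and threads it inside. Interferon induces a second set of catalytic subunits, which replace the constitutive ones in newly built cores to form the immunoproteasome, known for making peptides for antigen presentation. Neurons depend on the constitutive particle throughout life, since they do not dilute damaged proteins by dividing.

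The catalytic subunits and their interferon-inducible counterparts differed widely in how many cells held them, and the start regions of 2 such couples are shown for that reason. Psmb9 (beta1i) takes the place of Psmb6 (beta1), the caspase-like site, and Psmb8 (beta5i) that of Psmb5 (beta5), the chymotrypsin-like site. The windows run from 250 bases before the annotated start of the gene to 50 after it and come from RefSeq on GRCm38.p6, written 5′ to 3′ on the strand of the gene. Capitals mark a match to a motif that was searched on both strands.
Psmb9, chr17:34187281-34187580, minus strand: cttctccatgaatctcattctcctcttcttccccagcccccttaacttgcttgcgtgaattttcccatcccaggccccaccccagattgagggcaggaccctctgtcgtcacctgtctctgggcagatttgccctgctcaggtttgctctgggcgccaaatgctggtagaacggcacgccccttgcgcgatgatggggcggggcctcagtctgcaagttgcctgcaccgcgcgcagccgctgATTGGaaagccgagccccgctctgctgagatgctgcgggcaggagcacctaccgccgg
Psmb6, chr11:70525107-70525406, plus strand: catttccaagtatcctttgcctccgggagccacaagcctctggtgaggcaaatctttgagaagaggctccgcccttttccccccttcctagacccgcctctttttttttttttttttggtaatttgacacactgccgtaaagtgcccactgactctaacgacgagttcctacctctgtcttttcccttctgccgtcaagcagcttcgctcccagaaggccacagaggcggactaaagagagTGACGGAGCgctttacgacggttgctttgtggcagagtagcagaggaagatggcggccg
Psmb8, chr17:34197945-34198244, plus strand: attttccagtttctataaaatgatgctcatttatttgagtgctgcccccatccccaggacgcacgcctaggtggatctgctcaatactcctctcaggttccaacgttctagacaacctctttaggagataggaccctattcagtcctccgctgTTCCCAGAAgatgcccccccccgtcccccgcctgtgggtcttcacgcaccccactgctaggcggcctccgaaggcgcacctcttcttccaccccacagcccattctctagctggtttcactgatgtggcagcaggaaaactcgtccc
Psmb5, chr14:54617946-54618245, minus strand: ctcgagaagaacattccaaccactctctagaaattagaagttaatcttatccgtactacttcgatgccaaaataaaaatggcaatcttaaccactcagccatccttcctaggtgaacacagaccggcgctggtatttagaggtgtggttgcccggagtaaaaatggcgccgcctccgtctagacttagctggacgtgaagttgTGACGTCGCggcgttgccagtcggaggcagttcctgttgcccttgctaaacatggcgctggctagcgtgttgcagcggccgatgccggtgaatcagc
In Psmb9 the capitals are a CCAAT box read on the other strand, 8 bases before the start. In Psmb6 and Psmb5 they are TGACNNNGC, the core of the antioxidant response element, which the transcription factor encoded by Nfe2l1 is known to bind at proteasome genes. That match begins 9 bases before the start of Psmb6 and 47 before that of Psmb5. In Psmb8 they are TTCNNNGAA, the letters of the interferon-gamma site, 97 bases before the start. No 2 of these matches overlap.

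Windows were found for 39 of the 47 genes, 41 windows in all, and 8 genes (Psma8, Psmb1, Psmb2, Psmb7, Psmc3, Psmd3, Psmd7 and Psmg2) had none in the table. TGACNNNGC stood in 6 of the 41 windows (14.6%), against 12.4% of 32851 windows over all genes, and CCAAT in 14 (34.1%), against 37.4%. CCAAT stood in 6 of 12 windows of core genes and in 4 of 15 of cap genes. The interferon response element, written here as GAAA, any 2 bases and GAAA, stood in 5 of the 41 (12.2%; Psmb3, Psmd4, Psmd9, Psme1 and Psmg4), against 3.44% of all windows, and TTCNNNGAA in 3 (7.32%; Psmb8, Psmd2 and Psmg1), against 8.30%. The immunoproteasome genes held the interferon response element in 0 of 3 windows and TTCNNNGAA in 1 of 3, that of Psmb8. A match is a description of letters in these windows and says nothing of binding.

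Probe set signals are intensities computed by MAS5. Detection of a gene required a signal of no less than 8 times the median of the array, which placed the threshold between 64.2 in cell 14 and 439.7 in cell 1. Where a gene had several probe sets, that with the highest mean log2 signal was used. The cells varied in how much they yielded, with between 2540 (cell 5) and 6849 (cell 12) genes detected. RGC markers were detected in every cell, at 7 or 8 of 8, while rod markers were at 7 of 8 in cell 3 and 8 of 8 in cell 6, against 1 or 2 of 8 elsewhere. Single rod markers were bright in some of those other cells. Gnat1 was at 14374 in cell 13 and 8680 in cell 14, Sag at 6472 in cell 2 and Nrl at 3272 in cell 8. Müller glia markers were at 0 to 5 of 8, and Glul, which encodes glutamine synthetase, was detected in 8 of the 14 cells. Few molecules of a transcript enter such an amplification, and a transcript that was present can be missed. Different probe sets have no common scale of signal, so genes were compared mainly by the number of cells that held them. That number rests on 1 signal threshold per array, so differences in brightness between probe sets enter it too. Shares of detections far above the threshold depend on that scale as well. In single cells less RNA of a gene and a lost molecule cannot be told apart.

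Of the 47 proteasome genes, 38 (80.9%) were detected in at least 7 cells, against 24.8% of all genes. The median was 12 cells for a proteasome gene and 1 cell for all genes. In all 14 cells 6 members were detected, where 2.64% of all genes were. Another 6 were detected in 1 to 6 cells, where 33.4% of all genes fell, and 3 in none, where 41.8% fell. Genes were also counted by their number of probe sets, since the brightest was taken where there were several. Among genes with 1 probe set, 16 of 21 members (76.2%) reached 7 cells, against 15.5% of 9183 genes. Among genes with several, 22 of 26 members (84.6%) did, against 34.2% of 9010.

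**Figure D1:**
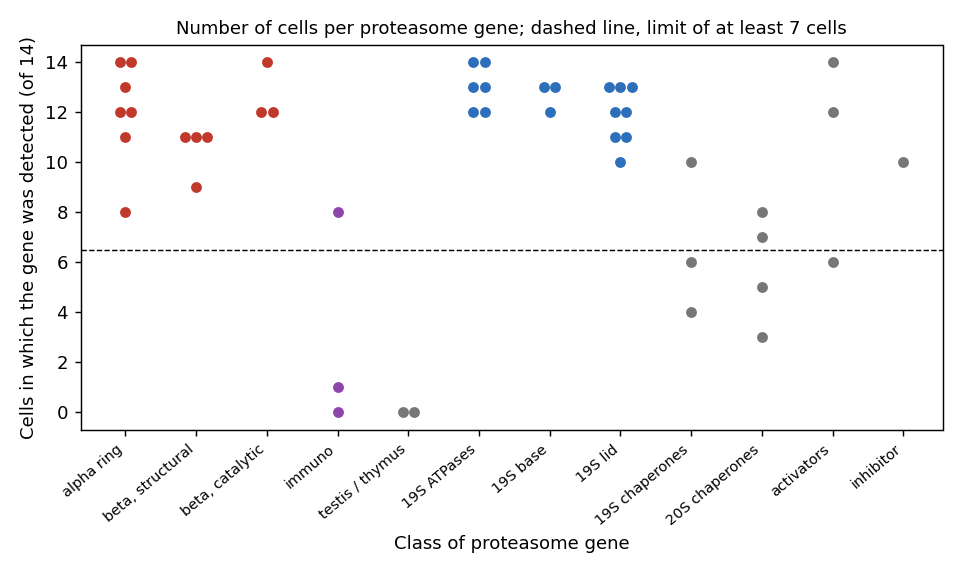
Each point is 1 of the 47 proteasome genes, placed by its class (x axis) and by the number of the 14 cells in which it was detected (y axis); 20S is the core and 19S the cap, and the dashed line marks the limit of at least 7 cells. All points of the rings and of the cap lie above the line, between 8 and 14 cells, while 2 of the 3 immunoproteasome genes lie at 0 and 1.

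Every constitutive gene of the barrel was detected in most cells, although 7 of the 14 cells lacked at least 1 of them. All 14 core genes reached 7 cells, with a median of 12 cells and a range of 8 to 14. In the alpha ring Psma1 and Psma6 were detected in all 14 cells, Psma7 in 13, Psma2 and Psma4 in 12, Psma3 in 11 and Psma5 in 8. Psma5 ran from 2.03 to 2886 with a median of 477.7, and its undetected value in cell 1 (347.8) was above its lowest detected one (337.1, cell 8), because the threshold of cell 1 was the highest of all arrays. Another probe set of Psma5 was detected in 10 cells, 2 more in all. The structural beta subunits were found in 11 cells each for Psmb1, Psmb3 and Psmb4 and in 9 for Psmb2.

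The 3 constitutive catalytic subunits were detected in 12 to 14 cells. Psmb6 was present in every cell with a lowest signal of 7104, a median of 15165 and a highest of 24018. Its log2 signal averaged 13.81 ± 0.58 (SD, n = 14 cells), and only 17 of the 480 genes detected in all cells had a smaller SD, where the median SD was 1.15. Thus the cells that lost many other subunits still held Psmb6, at 15744 in cell 5 and 20190 in cell 13. Psmb5 was detected in 12 cells at 6119 to 20411, and its signal was 40.5 in cell 5 and 4.86 in cell 13. Psmb7 (beta2), the trypsin-like site, was detected in the same 12 cells at 693.0 to 3323, and lay at 18.8 in cell 5 and 2.06 in cell 13.

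Their interferon-inducible counterparts were not detected together. Psmb8 passed the threshold in 0 of 14 cells, with a lowest signal of 1.87, a median of 8.75 and a highest of 124.7, and its highest value fell in cell 1 with its threshold of 439.7. Its other probe set was likewise at or below 93.0 and detected in 0 cells. Psmb9 ran from 17.5 to 90.0 with a median of 59.0. Its only detection, 70.9 in cell 5, was just above the threshold of 65.3 there and below the undetected 90.0 of cell 6, so that no cell stood apart. At a threshold of 4 times the array median Psmb9 was counted in 7 cells, and at 16 times in 0. Whether a low level was present could not be shown at this depth.

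Psmb10 (beta2i), which replaces Psmb7, behaved otherwise. It was detected in 8 cells. Its signals there were 453.5 in cell 2, 618.7 in cell 3, 11599 in cell 6, 1337 in cell 7, 3511 in cell 8, 453.7 in cell 9, 2434 in cell 12 and 1180 in cell 14. The other 6 cells lay at or below 83.0, so that a gap separated detected and undetected cells. The highest value came from cell 6, which also held all 8 rod markers and 2 of 8 endothelial and pericyte markers (Cldn5 at 7992 and Kdr at 2152), and cell 3 held 7 rod markers. Müller glia markers were at 1 to 4 of 8 in the cells with Psmb10 and at 0 to 5 in the others. Glul was detected in 6 of the 8 cells with Psmb10 and was highest in cell 6 (15865). It was also detected in cells 1 (3767) and 4 (4885), which lacked Psmb10. Dkk3, another Müller glia marker, was detected in cells 3, 6 and 8 with Psmb10 and in cells 1, 4, 10 and 13 without it. Clu, also such a marker, was detected in all 8 cells with Psmb10 and in every other cell but 5 and 10. Without cells 3 and 6, Psmb10 was detected in 6 of the remaining 12 cells and no immunoproteasome gene reached 7, and at a fixed signal of 1000 it was found in 5 cells. The part of RNA from other cells in these values was not tested, and the cells left after dropping 3 and 6 still held rod markers. Microglial markers were at 0 of 8 in each of the 8 cells with Psmb10 and in every other cell except cell 5, where Csf1r (86.1) and C1qb (69.1) were just past the threshold. All 8 cells with Psmb10 also held Psmb7.

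**Figure D2:**
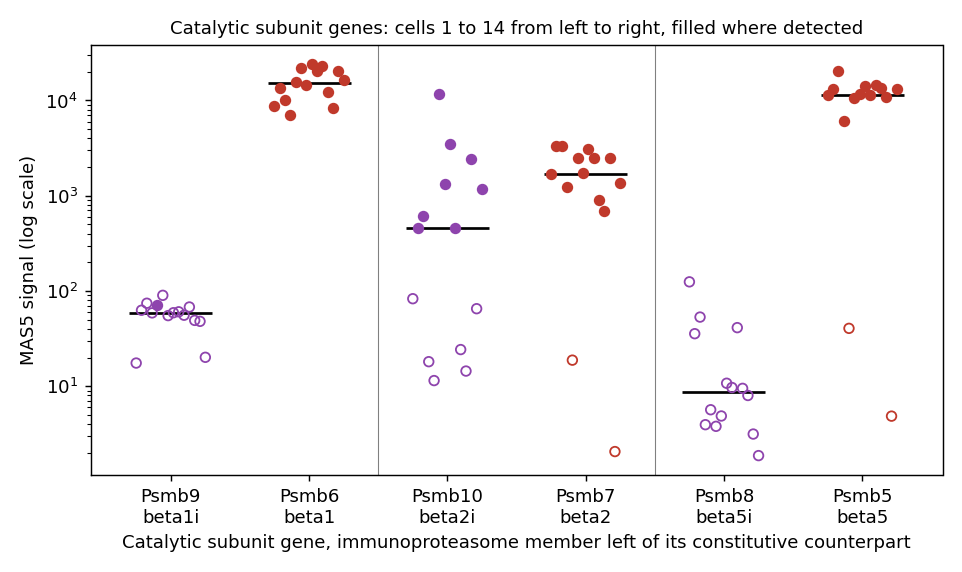
MAS5 signal (y axis, log scale) of each immunoproteasome gene, left, and its constitutive counterpart, right, in cells 1 to 14 from left to right within a gene; filled points are detected, open points are not, and lines are medians. Psmb6 is filled in 14 cells and Psmb8 in 0, Psmb10 splits into 8 detected cells from 453.5 up and 6 at or below 83.0; heights cannot be compared between genes.

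Of 10 measured genes of interferon response and antigen presentation, the interferon-gamma receptor genes Ifngr1 and Ifngr2 among them, 0 reached 7 cells, 7 were detected in 1 to 5 cells and 3 in none. Their median was 1 cell, as it was for all genes. Tap1, which encodes a peptide transporter subunit and lies beside Psmb9, was detected in cell 11 alone at 122.0, close to the threshold of 117.6. B2m, the light chain of class I molecules, was detected in cell 6 alone at 184.4. Tapbp, which encodes tapasin, was detected in 5 cells at 2261 to 9750, and Ifngr1 in 4 at 204.5 to 3514. The class I heavy chain genes H2-K1 (234.0 to 2958) and H2-D1 (205.8 to 4164) were detected in the same 5 cells. Whether their probe sets report separate transcripts was not tested. Irf1, Tap2 and Nlrc5 were detected in 0 cells, with highest signals of 73.9, 29.7 and 60.8.

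All 17 cap genes reached 7 cells too, with a median of 13 and a range of 10 to 14. Among the 6 ATPases that unfold the substrate, Psmc1 and Psmc3 were detected in 14 cells, Psmc2 and Psmc4 in 13, and Psmc5 and Psmc6 in 12. Psmc1 ran from 2212 in cell 1 to 42142 in cell 5, with a median of 12735. Psmc3 ran from 70.6 in cell 5 to 55417 in cell 10, with a median of 13468, and its value in cell 5 barely passed the threshold of 65.3. Its log2 SD of 2.21 was exceeded by few of the genes detected in every cell, since 464 of the 480 had a smaller one, against 17 for Psmb6.

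In the base, the scaffold subunits Psmd1 and Psmd2 were detected in 12 and 13 cells and the ubiquitin receptor Psmd4 in 13. Psmd4 was between 3392 and 35317 in those cells and at 4.11 in cell 14. In the lid, Psmd14, the deubiquitinase that cuts ubiquitin from the substrate, was detected in 13 cells at 563.7 to 26466 and was at 1.90 in cell 5. Psmd6 and Psmd13 were detected in 13 cells, Psmd3 and Psmd11 in 12, Psmd7 and Psmd8 in 11, and Psmd12 in 10. Psmd6 was highest in cell 5 (53060), and Psmd14 lowest, so that this cell held the top value of one lid gene and the bottom value of another.

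**Figure D3:**
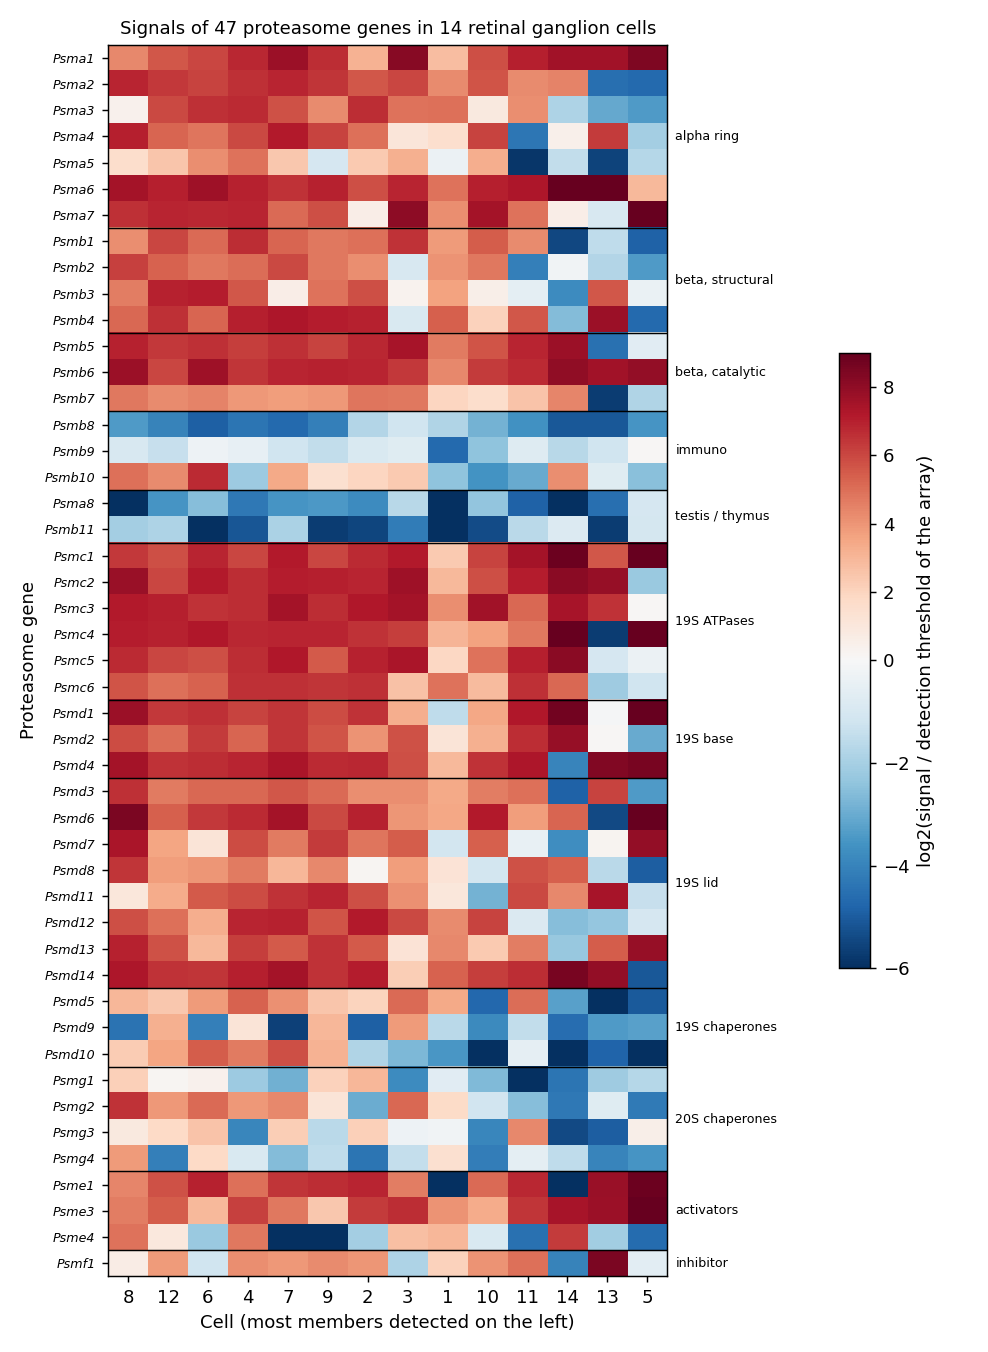
Signals of the 47 proteasome genes (rows, by class) in the 14 cells (columns, most members detected on the left) as log2 of the signal over the threshold of the array; red is detected, blue is not, and values past the ends of the scale take the end colours. The 6 cells with every core and cap gene (8, 12, 6, 4, 7 and 2) have unbroken red in those classes, and the blue gaps gather in cells 14, 13 and 5 on the right.

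Core and cap genes gave 434 values over the 14 cells, of which 59 were not detected. Of these, 34 fell in cells 5 and 13 and 51 in cells 5, 11, 13 and 14. The other 10 cells together had 8. Cells 2, 4, 6, 7, 8 and 12 held all 31 genes. Cell 11 lacked 6, namely Psma4, Psma5, Psmb2, Psmb3, Psmd7 and Psmd12. Of the rest, cell 9 lacked Psma5, cell 3 lacked Psmb2 and Psmb4, cell 10 lacked Psmd8 and Psmd11, and cell 1 lacked Psma5, Psmd1 and Psmd7.

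Cell 5 lacked 19 of the 31 genes. The signals of those it held lay between 14665 (Psmd13) and 53060 (Psmd6), apart from Psma6 (484.4) and Psmc3 (70.6). Signals of detected genes ran high on this array as a whole. Set against the mean log2 signal of the same gene over the cells that held it, the detected core genes of cell 5 stood 0.66 higher at the median and the cap genes 1.82, against 1.35 for all genes found in at least 7 cells. In cell 13 these medians were 1.16 for core and 0.42 for cap, against 1.20 for all such genes. Cell 13 lacked 15, among them Psmb5 (4.86) and Psmc4 (2.06), while Psma6 had its highest value there (72636). Cell 14 lacked 11, which included all 4 structural beta genes, although it held the 3 catalytic genes and all 6 ATPases. That class pattern of cell 14 was picked out after its values were seen. Each of these 3 cells was among the 5 with the fewest genes detected over the whole array.

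Most values were far from the threshold on either side. Of 375 detections of core and cap genes, 336 (89.6%) were at least 8 times the threshold of the array, against 65.9% of 64240 detections over all genes. Only 12 detections lay within 2-fold above it, while 14 of the 59 non-detections lay within 2-fold below it. Over all genes, 7178 of the 64240 detections lay that close. So did 16320 of the non-detections of 18193 genes in 14 cells, a smaller share than for core and cap genes. Psma2 shows the split, at 1445 to 14790 in 12 cells and at 2.60 and 4.68 in cells 5 and 13. Psmb3 shows it less, with 3 detections within 2-fold above the threshold and 2 non-detections within 2-fold below.

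Per cell, 71.3% ± 18.1 of the 47 members were detected, against 25.2% ± 7.21 of all genes (SD, n = 14 cells). The number of members ran from 16 in cell 5 and 19 in cell 13 to 42 in cells 8 and 12. In each cell the share of members was above the share of all genes, with 34.0% against 14.0% in cell 5 and 89.4% against 37.6% in cell 12. The shares moved together across cells, with Pearson's r = 0.806 and Spearman's rho = 0.793 over 14 cells, and r = 0.728 without cells 5 and 12, which lay farthest from the median in all genes detected. Each point of that relation is 1 library, and both shares come from the same array and threshold. Cell 8 held 42 members with 22.4% of all genes, and cell 14 held 23 with 19.9%, so that cells of like yield differed widely.

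**Figure D4:**
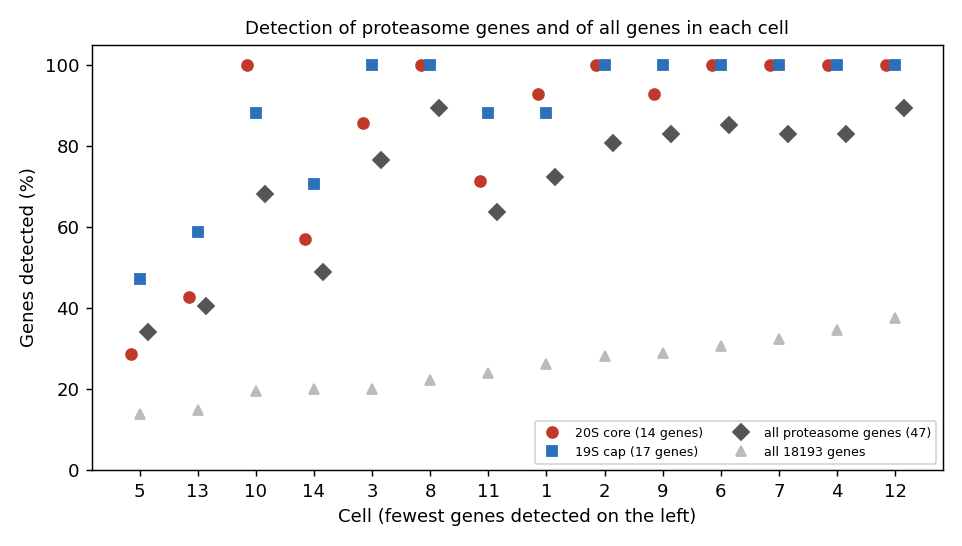
Share of genes detected in each cell (y axis, percent) for the 14 core genes, the 17 cap genes, all 47 proteasome genes and all 18193 genes, with cells ordered by the genes they yielded (x axis). Core and cap stand at 100% together in 6 cells and core lies lowest in cell 5, at 28.6% against 47.1% for the cap; all genes run from 14.0% to 37.6%.

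Core and cap were compared within each cell, so that both shares rest on the same library. The core was detected at 83.7% ± 24.2 and the cap at 88.7% ± 17.5 (SD, n = 14 cells). Core minus cap averaged -4.98 ± 9.31 percentage points (SD), a difference that was not tested. It was below 0 in 6 cells, above 0 in 2 (cells 1 and 10) and 0 in 6 that held every gene of both, where no difference could show. The lowest value was -18.5 in cell 5 and the highest 11.8 in cell 10. Core and cap shares moved together, with r = 0.950 and rho = 0.773 over 14 cells, and r = 0.811 without cells 5 and 13.

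Single genes of the particle did not track each other closely. The median Pearson's r of log2(signal + 32) over 14 cells was 0.27 for the 91 couples of core genes, 0.26 for the 136 of cap genes and 0.25 for the 238 of a core and a cap gene, against 0.09 for all couples of 6883 genes detected in at least 4 cells. Without cells 5 and 13 the medians were 0.22 for core, 0.07 for cap and 0.04 for core with cap, against 0.04 for all genes. The set of all genes held genes found in fewer cells than any core or cap gene, and was not matched to them in detection. Couples share cells and the loss of whole transcripts, and they are not independent.

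Chaperones build the particle and do not remain in it. Those within the symbol rule were found in fewer cells at the median than core and cap genes. Of 7 such genes, 3 (42.9%) reached 7 cells, against 24.8% of all genes. Their median was 6 cells, against 12 for core and cap genes and 1 for all genes. Psmd5 and Psmg2 fell within the range of the core genes, 8 to 14 cells. Pomp, an assembly factor outside the symbol rule and not counted here, was detected in all 14 cells. Among those of the cap base, Psmd5 was detected in 10 cells, Psmd10 (gankyrin) in 6 and Psmd9 in 4. Psmd10 was between 548.4 and 7111 in cells 4, 6, 7, 8, 9 and 12 and at or below 80.0 elsewhere, with a median of 59.7 over all cells. Psmd9 was detected in cells 3, 4, 9 and 12 at 189.9 to 1717, with a lowest signal of 2.58 and a median of 15.6.

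Among the chaperones of the core, Psmg2 was detected in 8 cells, Psmg3 in 7, Psmg1 in 5 and Psmg4 in 3. Psmg1 ran from 1.73 to 965.1 with a median of 35.6, and its 274.1 in cell 1 did not pass the threshold there. Psmg4 ran from 5.67 to 1665 with a median of 33.4 and was detected in cells 1, 6 and 8. Of the 43 chaperone detections, 22 (51.2%) were at least 8 times the threshold.

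Activators other than the cap differed among themselves. Psme3, which encodes the nuclear activator PA28gamma, was detected in all 14 cells at 844.8 to 32342 with a median of 6645. Psme1, which encodes the interferon-inducible PA28alpha, was detected in 12 cells at 2386 to 29967 and lay at 2.86 in cell 1 and 0.70 in cell 14. Psme4 (PA200) was detected in 6 cells, with a lowest signal of 0.59, a median of 92.0 and a highest of 5152. Psmf1, which encodes the inhibitor PI31, was detected in 10 cells at 179.4 to 39311, with the highest in cell 13.

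Psma8, the alpha subunit of the testis, and Psmb11, the catalytic beta subunit of the thymus, were detected in 0 cells. Psma8 ran from 0.88 to 56.5 with a median of 9.67 and Psmb11 from 1.31 to 38.2 with a median of 6.79. Each has 1 probe set on the array.

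Other probe sets of a gene often differed from the one used. Of the 47 members, 21 had 1 probe set and 26 had several, with 53 probe sets besides those used. Of these 53, 25 were detected in no cell and 18 in at least 7 cells. A further probe set reached 7 cells for 15 of the 26 genes, and for 8 none was detected at all. Psma1 is such a gene, at 14 cells by the probe set used and 0 by each of 3 others, whereas Psma6 was found in all 14 cells by 2 probe sets, in 13 by a further one and in 0 by the last. Counting a gene where any probe set passed added cells for 4 members only, Psma5 (10 cells against 8), Psmb1, Psmb3 and Psmd7 (12 against 11 each).

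Genes that act beside the particle, taken from lists rather than from the symbol rule, were mostly present too. Pomp, which guides assembly of the beta ring, was detected in all 14 cells at 5295 to 26175 with a median of 12571. Nfe2l1, the transcription factor of proteasome genes, was detected in 12 cells, Ecpas in 10 and Akirin2, which serves nuclear import of the particle, in 6, so that 3 of 4 measured genes of this list reached 7 cells. Of 4 measured genes for cap subunits and cap-bound enzymes outside the rule, 3 did. These were the deubiquitinases Uchl5 (13 cells) and Usp14 (12) and the small lid subunit Sem1 (9), while the ubiquitin ligase Ube3c was detected in 5.

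Of the shuttle factors and the unfoldase that deliver substrates, 5 of 5 measured genes reached 7 cells. Vcp, the unfoldase, was detected in all 14 cells at 7145 to 58325, Rad23b in 12, Ubqln1 in 11 and Ubqln2 and Ubqln4 in 8 each. Adrm1, Paaf1 and Ddi2 had no probe set here annotated to them alone and were not analysed here.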

How the data were processed

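The deposited values are signal intensities per probe set on a linear scale, computed by the authors with MAS5. The sources used here give no version of it. The 2% trimmed mean was 500.0 on every array, as scaling by 1 factor per array gives. The table held 45101 probe sets, 64 of them controls. Names came from the array annotation, with symbols updated through a gene table of GRCm38.p6 used for names only. Of 45037 probe sets, 34945 named a single gene, of which 34741 were matched in that table, 932 named several and were left unnamed, and 9160 carried no name here.

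A signal of at least 8 times the array median counted as detected, and none of 378 values of 27 bacterial control probe sets passed (0 of 378). Log2 values were taken without an added constant for means and SDs, and with 32 added for correlations. Each class of members was given with its counts of cells. Signals were given for catalytic subunits and their counterparts, for members in all cells or in under 7, and for those whose probe sets disagree, with further members named after their values were seen. Members and lists were chosen with earlier results of these data known. No depth in counts exists for arrays, and the number of cells limits the precision. The counting of detections was tested on simulated data. Planted signals lay above the threshold and background below it, so that test could not assess the threshold itself or the loss of transcripts. Alternatives changed the threshold, the probe set of a gene and the cells. Python 3.11.15, numpy 2.4.6, pandas 2.3.3, scipy 1.17.1 and matplotlib 3.10.9 were used.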

Additional observations from a re-analysis of the deposited data

How the results depend on the processing

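The count of proteasome genes in at least 7 cells was 38 and ran from 29 to 41 over 9 alternatives. It was lowest with probe sets of a plain _at name, where only 41 members were measured. The share of all genes in at least 7 cells was 24.8%, and 21.3% with these probe sets. It was lowest at a fixed signal of 1000 (15.3%, with 34 members) and highest at 4 times the array median (30.7%, with 41 members). With the plain _at probe sets 11 cap genes of 14 measured reached 7 cells, against 17 of 17. The 3 immunoproteasome genes gave a count of 1, 2 at 4 times the array median, and 0 at a fixed signal of 1000, at the same number of probe sets in every cell and without cells 3 and 6. The last leaves 12 cells for the same limit of 7. At 4 times the array median Psmb9 came to 7 cells. Psmb10 fell to 5 cells at the fixed signal and to 6 at the same number of probe sets. The mean share of members per cell ran from 60.6% to 77.0%, where that of all genes ran from 17.3% to 31.6%. Core minus cap ran from -8.10 to -2.94 points and was below 0 in all 9 alternatives. With the same number of probe sets counted in every cell, cells 5, 13 and 14 held 38.3%, 42.6% and 51.1% of members. No paired analysis between groups of cells was possible because the cells form 1 group. Amplification from single cells and the lack of animal labels limit every count to these 14 libraries.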
